A study of Homo sapiens with 7 samples.

Results

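Lone H3K27ac peaks, those that met no peak of any other mark in the series, made up 11337 of the 31453 H3K27ac peaks found on chromosomes 1 to 22 and X in T-47D cells, with a 95% Wilson interval of 35.5 to 36.6% for their share. The lone peaks were chosen by their width and by their overlaps in the peak lists, and those values are not findings: a peak was lone when it was at most 5000 bp wide and shared no bp with the H3K4me2, H3K36me3 or H3K27me3 lists or with the lists labelled H2A.Z and H3K9me3. They were set beside 14855 H3K27ac peaks of at most 5000 bp that shared at least 1 bp with H3K4me2. T-47D is an established luminal breast cancer line that expresses estrogen receptor, grown here without any treatment in medium with 10% serum. Chromatin was sonicated and precipitated with an antibody against each histone form, and every mark had 1 library with 1 peak list, so no value below has a replicate error and no test between conditions was possible. The intervals cover counting error alone, with peaks taken as independent, and are too narrow where peaks lie close together. All groups are sets of peaks in the same H3K27ac library.

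Acetylation of lysine 27 on histone H3 is placed by the related acetyltransferases CBP and p300 and marks promoters and enhancers in use, where it takes the place of the Polycomb mark H3K27me3 on the same residue. H3K4me2 is laid down by the COMPASS family of methyltransferases and is usually found over the same promoters and enhancers, often on the flanks of the open site. H3K36me3 is placed by SETD2 as RNA polymerase II elongates and is known from the bodies of transcribed genes. Its list here covered 3.63% of the analysed span, in peaks with a median width of 723 bp. No gene annotation was used, so a distance to H3K36me3 is a distance to a listed peak and not to a gene. The lists labelled H2A.Z and H3K9me3 are named by their labels, because what they showed around H3K27ac ran against the background for that variant, known from active promoters and enhancers, and that mark, known from heterochromatin. In the second kb outside lone peaks the labelled H3K9me3 list covered 1.61% of the sequence, against 0.484% of the analysed span, and the labelled H2A.Z list covered 0.0659%, against 1.22% of the span.

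Most H3K27ac peaks that were not lone met H3K4me2, and fewer met another list without it. Of all H3K27ac peaks, 16099 (51.2%, Wilson interval 50.6 to 51.7) held no H3K4me2, and 4734 of those met another list. H3K36me3 by itself took 2919 of these and the labelled H3K9me3 list by itself took 1765, whereas H3K27me3 or labelled H2A.Z met 22. A further 28 peaks met no other list but were wider than 5000 bp and were left out.

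The rule has a limit on width and a limit on overlap. Just below the width limit were lone peaks of 4974 bp (chr16:1621746-1626719, hg19), 4928 bp (chr22:39568478-39573405) and 4881 bp (chr10:123268801-123273681). Just above it were peaks of 5027 bp (chr1:150941770-150946796), 5053 bp (chr9:95892301-95897353) and 5205 bp (chr6:26201716-26206920). At the limit on overlap, the lone peaks chr19:36139083-36139848 and chrX:43513606-43514106 touched an H3K4me2 and a labelled H3K9me3 peak with a gap of 0 bp, and chr1:117774449-117774949 lay 1 bp from H3K4me2. The peaks chr5:35174101-35175251, chr12:89843850-89844350 and chr12:100241365-100242213 shared 1 bp with H3K4me2 and so were not lone. Another list lay within 100 bp of 4.42% of lone peaks and within 1000 bp of 4242 (37.4%), so the limit on overlap cuts through a well-filled range of gaps, while 623 of the 19552 other H3K27ac peaks of at most 5000 bp (3.19%) shared at most 100 bp with the list they met most.

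Lone peaks were narrow. Their median width minus that of the peaks with H3K4me2, which was 908 bp (order-statistic interval 895 to 921), came to -407 bp (-420 to -394, bounds from the ends of both intervals). The medians stood in this order on 23 of 23 chromosomes. The rule favours narrow lone peaks on any chromosome, since a wider peak meets another list more easily. The order therefore describes the selection. The lone median was itself the commonest width of the H3K27ac list, a little above 500 bp, at which 6810 lone peaks stood (60.1%, Wilson interval 59.2 to 61.0), against 3957 peaks with H3K4me2 (26.6%, 25.9 to 27.4). A width over 1000 bp was reached by 1706 lone peaks, against 6855 (46.1%) of those with H3K4me2. Together the lone peaks covered 8.46 Mb, while the peaks with H3K4me2 covered 19.0 Mb.

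The share of lone peaks was lower in each wider class. Of all H3K27ac peaks up to the commonest width, 51.7% (50.9 to 52.6) were lone, and above it up to 1000 bp 35.2% (34.2 to 36.3) were. Of those over 1000 and up to 2000 bp 21.0% were lone, and of those over 2000 and up to 5000 bp 12.2% (11.2 to 13.3). A wider peak has more sequence in which to meet another list, so the rule itself favours narrow peaks and these shares describe the selection. The lists carry no height or p-value, so whether lone peaks were also weaker was not tested.

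**Figure D1:**
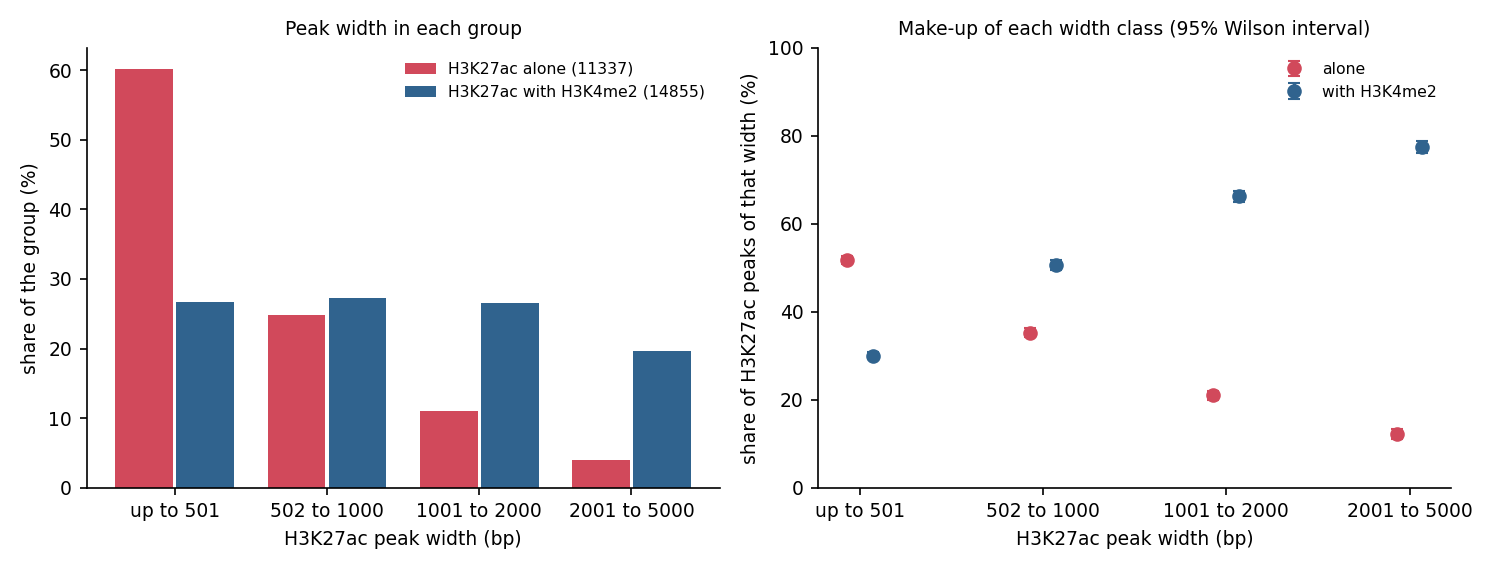
Left, share of each group (%) in 4 width classes (bp) for lone H3K27ac peaks (red) and H3K27ac peaks with H3K4me2 (blue). Right, share of all H3K27ac peaks of each class that fell in either group, with 95% Wilson intervals. The lone share is 51.7% in the narrowest class and 12.2% in the widest.

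Although they met no H3K4me2, lone peaks lay close to it. The median gap to the nearest H3K4me2 peak was 2688 bp (order-statistic interval 2587 to 2780), with quartiles of 917 and 8069 bp. For peaks that did hold H3K4me2, the gap to the next H3K4me2 peak beyond the ones they overlapped had a median of 4118 bp (3988 to 4263). The lone median was the smaller one on 21 of 23 chromosomes, the exceptions being 12 and X. The gaps of the groups are not like for like, because the comparison gap skips the H3K4me2 peaks already overlapped. Their order therefore does not show that lone peaks lay nearer to H3K4me2. An H3K4me2 peak stood within 1 kb of 3047 lone peaks (26.9%, Wilson interval 26.1 to 27.7), and a further one within 1 kb of 16.8% (16.2 to 17.4) of peaks with H3K4me2. Within 5 kb the shares were 64.8% (63.9 to 65.6) and 54.6% (53.8 to 55.4). The difference held in each width class: among peaks up to the commonest width the medians were 2880 bp for lone peaks and 3981 bp for those with H3K4me2, and over 2000 and up to 5000 bp they were 2822 and 3841 bp. Against the 9874 peaks of at most 5000 bp with H3K4me2 and no other list, whose median gap was 3552 bp (3398 to 3675), the difference was smaller, -864.5 bp (-1088 to -618) in place of -1430 bp (-1676 to -1208). The comparison is sensitive to the edge of the rule, since asking for no other list within 1 kb leaves 7095 peaks with a median gap of 4681 bp, which is 563 bp longer than that of the peaks with H3K4me2.

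H3K4me2 flanked many lone peaks on either side. For 2210 of them (19.5%, Wilson interval 18.8 to 20.2) an H3K4me2 peak lay within 5 kb on both sides, against 2027 (13.6%, 13.1 to 14.2) of the peaks with H3K4me2. Among peaks with H3K4me2 and no other list the share was 15.8% (15.1 to 16.6). In both comparison groups the flanks lay beyond the H3K4me2 peaks already overlapped, so the shares are not like for like. The nearest H3K4me2 peak usually had no H3K27ac of its own: 3970 lone peaks (35.0%, 34.1 to 35.9) had a nearest H3K4me2 peak that overlapped H3K27ac, and 28.1% (26.5 to 29.7) of the 3047 with one within 1 kb did. For peaks with H3K4me2 the same shares, for the next H3K4me2 peak, were 31.2% and 26.6% (24.9 to 28.4), and 25.7% of all H3K4me2 peaks overlapped H3K27ac. Whether such pairs are 1 regulatory element split between the lists cannot be told from peak edges.

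Width changed little along the distance from H3K4me2. Lone peaks within 500 bp of H3K4me2 numbered 1654 and 56.3% of them had the commonest width. Between 5 and 20 kb there were 2775, of which 64.1% had it, and the median width was the same in both. The 398 lone peaks more than 50 kb away (3.51%) were the exception, with a median width of 626 bp and 48.7% at the commonest width. They also lay 77965 bp (49964 to 119679) from H3K36me3 in the median, against 11476 to 13667 bp in the nearer classes, and 72300 bp from the next H3K27ac peak.

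Distance to H3K36me3 hardly differed between the groups as a whole. Lone peaks lay 12965 bp (12403 to 13571) from the nearest H3K36me3 peak in the median, and peaks with H3K4me2 lay 13021 bp (12428 to 13654) from the nearest one they did not overlap. Leaving out the peaks with H3K4me2 that overlapped H3K36me3, which the rule removes from the lone group by design, put their median at 14870 bp (14190 to 15708). By chromosome the lone median was the smaller on 8 and the larger on 15 of 23. Width divided the comparison. Up to the commonest width, lone peaks were nearer H3K36me3, with 13784 bp against 23304 bp for peaks with H3K4me2, and above it up to 1000 bp the medians were 12508 and 17564 bp. Above that the order turned, to 10482 bp against 8924 bp over 1000 and up to 2000 bp and 9962 bp against 6258 bp over 2000 and up to 5000 bp, with overlapping intervals in the narrower of these classes (9006 to 12430 and 8078 to 9641). In peaks with H3K4me2, then, wider peaks had shorter gaps to H3K36me3 than narrow ones, and in lone peaks the medians of the 4 classes spanned only 9962 to 13784 bp. The classes keep the peaks with H3K4me2 that overlapped H3K36me3, scored by the next H3K36me3 peak. Their part in the turned order was not tested.

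Some lone peaks lay between H3K36me3 peaks. H3K36me3 lay within 5 kb on both sides of 1080 lone peaks (9.53%), against 941 (6.77%, Wilson interval 6.36 to 7.20) of the peaks with H3K4me2 and without H3K36me3. With 10 kb on both sides the shares were 16.5% (15.8 to 17.2) and 12.4% (11.8 to 12.9). Among peaks with H3K4me2 and no other list they were 7.83% (7.32 to 8.38) within 5 kb and 14.1% (13.4 to 14.8) within 10 kb. Of the 5 other lists, H3K4me2 was the nearest for 64.4% of lone peaks, H3K36me3 for 24.2%, labelled H3K9me3 for 8.88%, labelled H2A.Z for 1.31% and H3K27me3 for 1.15%. For peaks with H3K4me2 the H3K27me3 share was 2.77% (2.52 to 3.05), above the 0.967 to 1.36 interval of the lone peaks. Polycomb chromatin was far from both groups, with a median gap to H3K27me3 of 195646 bp (191618 to 201132) for lone peaks and 165082 bp (161330 to 168693) for peaks with H3K4me2. Within 5 kb of H3K27me3 lay 87 lone peaks (0.767%, 0.623 to 0.946), against 315 peaks with H3K4me2 (2.12%, 1.90 to 2.36). Peaks with H3K4me2 and no other list stood between, with a median gap of 184312 bp (178339 to 190067) and 1.36% (1.15 to 1.60) within 5 kb.

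Coverage outward from the peak edges showed the same neighbourhood without regard to which peak was nearest. In the first kb outside lone peaks H3K4me2 covered 6.50% of the sequence, in the second 9.72%, and between 29 and 30 kb still 5.82%, where its share of the analysed span was 1.90%. Around peaks with H3K4me2 the first kb held 24.7%, much of it the ends of the overlapping peaks themselves, and from 2 kb onward the order changed, with 9.18% around lone peaks against 8.35% between 2 and 3 kb. H3K27ac itself covered 10.5% of the second kb outside lone peaks and 8.06% outside peaks with H3K4me2, and 6.18% against 4.66% between 29 and 30 kb. H3K36me3 climbed with distance around both groups, to 7.72% around lone peaks against 10.1% between 3 and 4 kb. Between 20 and 21 kb the shares were 10.7% and 10.5%. The rule bars lone peaks from overlapping H3K36me3 and the comparison group keeps peaks that do, so the lower cover close to lone peaks describes the selection. H3K27me3 remained under its 1.75% share of the span at every distance up to 30 kb, at 0.385% and 0.658% in the last kb.

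**Figure D2:**
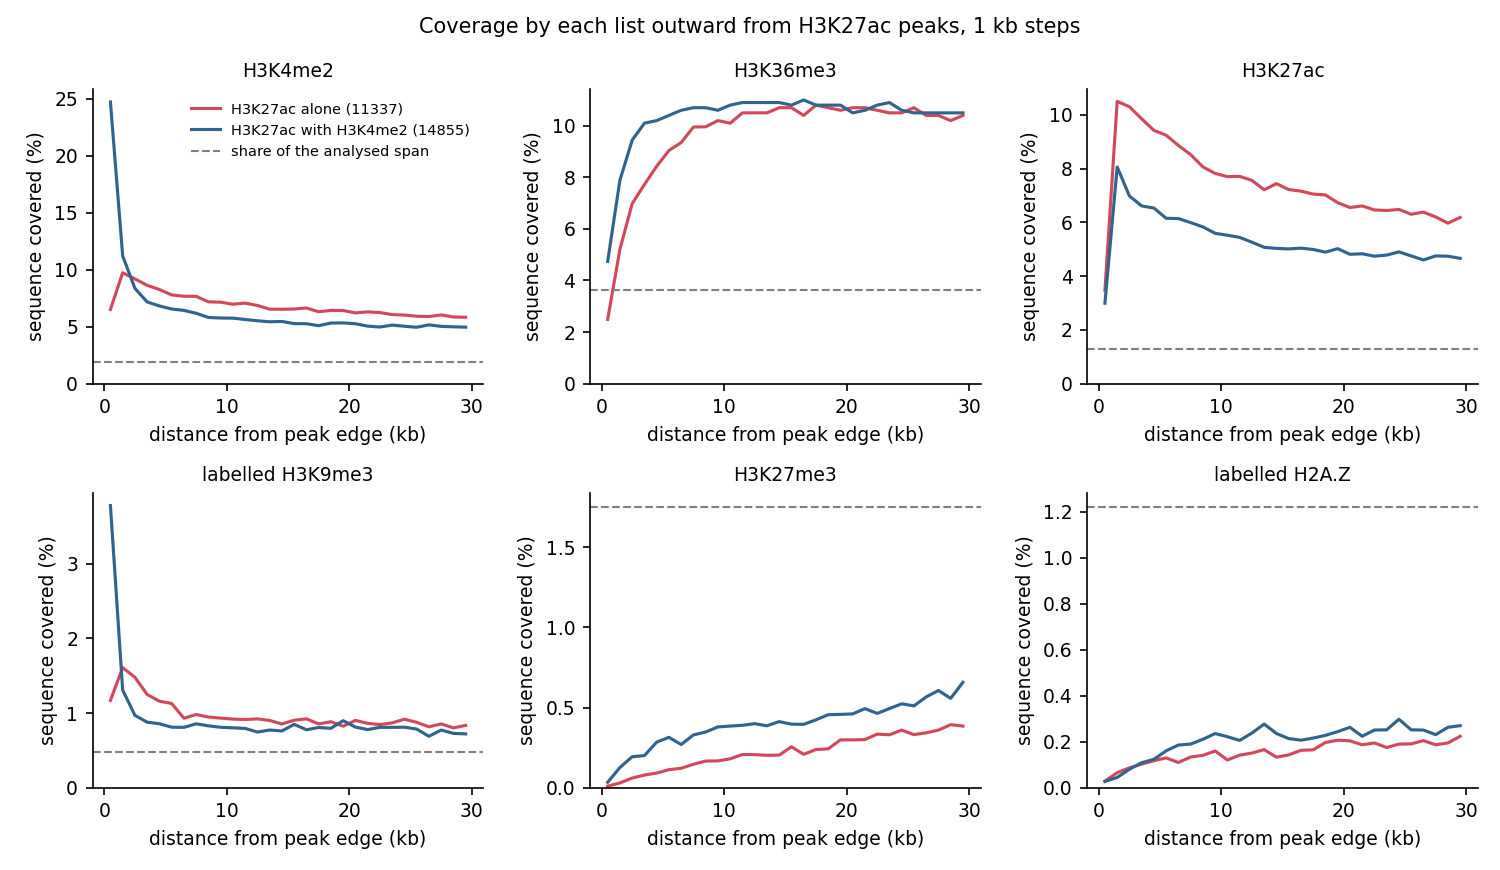
Share of sequence (%) covered by each list in 1 kb steps from the edges of lone H3K27ac peaks (red) and H3K27ac peaks with H3K4me2 (blue), both sides added; dashed lines give each list's share of the analysed span. Lone peaks stand lower in H3K4me2 in the first kb (6.50 against 24.7%) and higher in H3K27ac from the first kb to the last.

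Lone peaks were clustered with other H3K27ac peaks. The next H3K27ac peak lay 3500 bp away in the median (order-statistic interval 3345 to 3642), against 6522 bp (6200 to 6862) for peaks with H3K4me2, and the lone median was the smaller on 22 of 23 chromosomes, all but 21. Peaks with H3K4me2 and no other list had a median gap of 4980 bp (4672 to 5246), which put the difference at -1480 bp (-1901 to -1030) in place of -3022 bp (-3517 to -2558). Gaps under 500 bp were rare in both groups, at 2.13% of lone peaks and 1.20% of peaks with H3K4me2. Within 5 kb another H3K27ac peak was found for 57.3% (Wilson interval 56.4 to 58.3) of lone peaks and 45.7% (44.9 to 46.5) of peaks with H3K4me2. The nearest H3K27ac peak was itself lone for 41.5% (40.6 to 42.4) of them and for 35.7% (34.9 to 36.5) of peaks with H3K4me2, beside an interval of 35.5 to 36.6% for their share of all H3K27ac peaks. It carried H3K4me2 for 47.1% of lone peaks and 51.2% of peaks with H3K4me2. With H3K27ac peaks merged within 1 kb first, 9453 lone peaks remained and their median gap was 5572 bp (5354 to 5840), and its difference from that of merged peaks with H3K4me2 was -4174 bp (-4733 to -3521).

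H3K27ac peaks were joined into runs at the gap commonly used for enhancer clusters, given with the processing, which gave 15962 runs. Runs of lone peaks only numbered 3525 (22.1%, Wilson interval 21.4 to 22.7) and held 4222 lone peaks, 3008 of them single. Mixed runs numbered 3622 and held the other 7115 lone peaks (62.8%), and 6475 lone peaks shared a run with a peak of at most 5000 bp that carried H3K4me2. The lone share was larger in longer runs: it was 29.8% (28.9 to 30.7) of single peaks, 35.3% in runs of 2, 38.1% in runs of 3 and 42.1% (40.4 to 43.8) in runs of 11 or more. Peaks with H3K4me2 made up 56.7% of single peaks and 34.4% in the longest runs. Within the 2965 runs of 3 or more peaks, lone peaks took 41.0% (40.0 to 42.0) of inner places and 39.4% (38.2 to 40.7) of first or last places, and these intervals overlap. Peaks with H3K4me2 took 38.1% of inner and 42.9% of outer places.

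**Figure D3:**
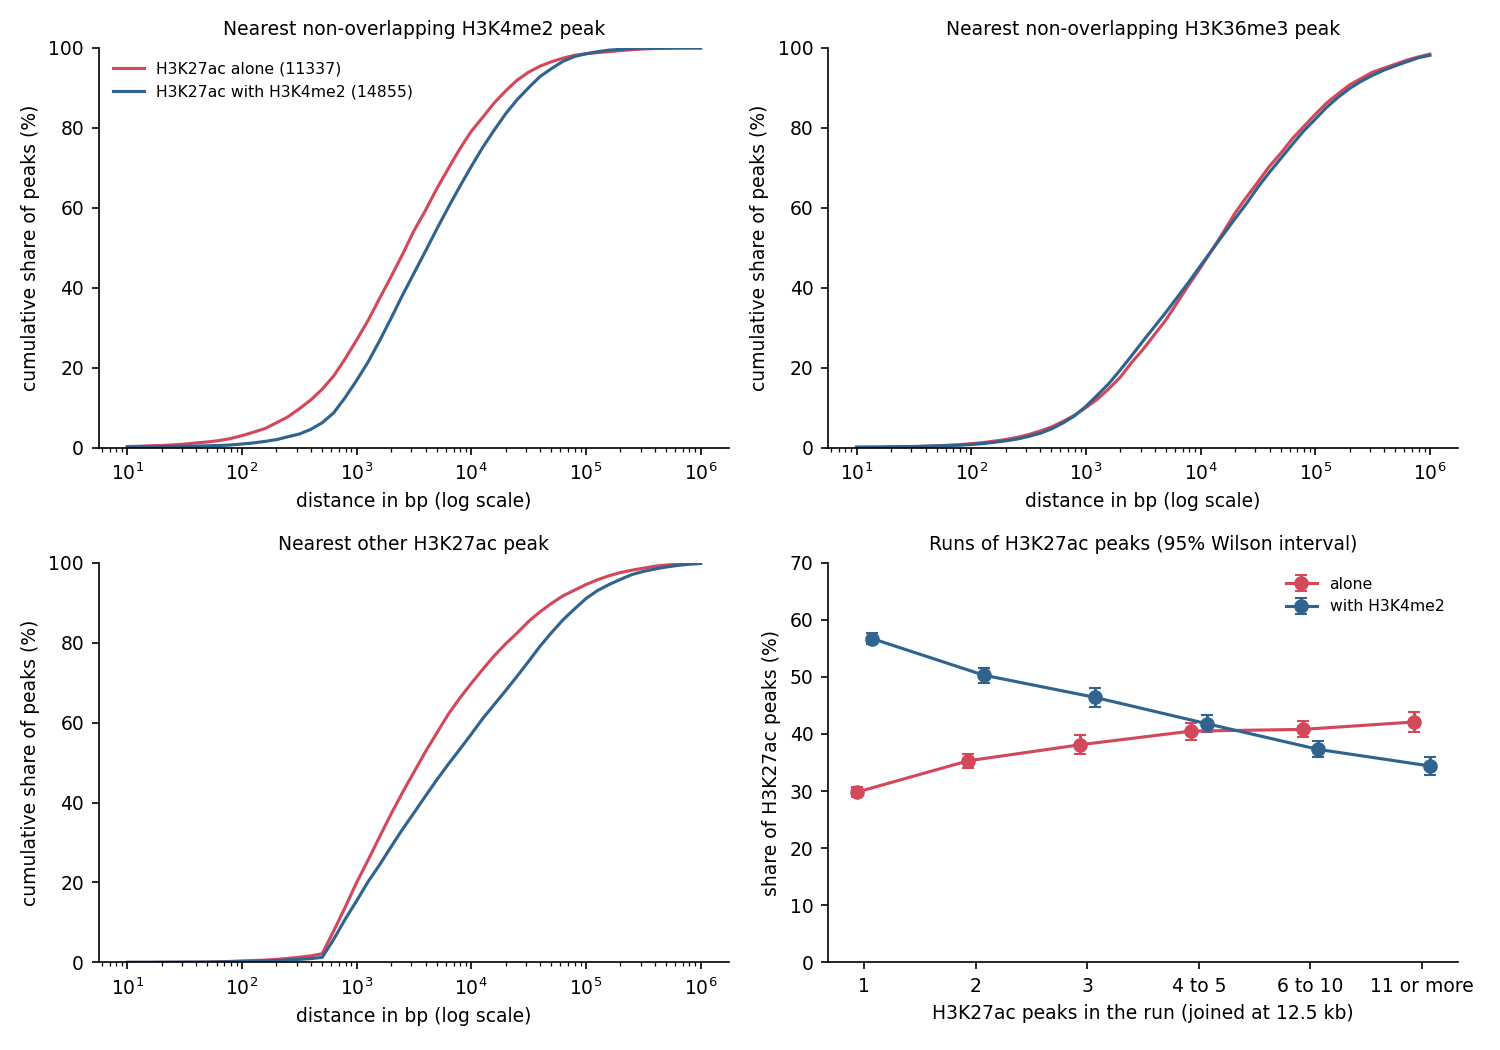
Cumulative share of peaks (%) by distance (bp, log scale) for lone H3K27ac peaks (red) and those with H3K4me2 (blue). Distances run to the nearest H3K4me2 or H3K36me3 peak not overlapped, or to the nearest other H3K27ac peak. Lower right, the share of H3K27ac peaks that fell in either group by the number of peaks in their run, with 95% Wilson intervals. The lone curve lies left for H3K4me2 (medians 2688 and 4118 bp) and H3K27ac (3500 and 6522 bp), and the curves nearly coincide for H3K36me3.

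The longest runs of lone peaks only were short stretches of narrow peaks. The longest held 7 peaks over 26260 bp on chromosome 17 (78170029 to 78196288), of which 6 had the commonest width and 1 measured 1692 bp. Its peaks lay 207 to 22815 bp from H3K36me3 and 2694 to 23073 bp from H3K4me2. A run of 6 peaks on chromosome 8 (102643399 to 102658764) lay farther out, 18231 to 33096 bp from H3K4me2 and at least 26276 bp from H3K36me3. Another 6 peaks on chromosome 17 (66323203 to 66332600) spanned 9398 bp, the widest of 657 bp and the nearest H3K4me2 at 2719 bp. No run of 11 or more H3K27ac peaks consisted of lone peaks only.

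Over the 2773 Mb analysed, lone peaks numbered 4.09 per Mb and peaks with H3K4me2 5.36 per Mb. Lone peaks were densest on chromosomes 19 and 17, with 12.1 (exact Poisson interval 11.2 to 13.0) and 11.6 (10.9 to 12.4) per Mb, and sparsest on chromosome 13, with 1.49 (1.25 to 1.76). Peaks with H3K4me2 numbered 15.9 per Mb on chromosome 19, 11.6 on chromosome 17 and 2.84 on chromosome 13. As a share of H3K27ac peaks, the lone ones stood between 31.3% on chromosome 13 (27.2 to 35.8) and 39.8% on chromosome 17 (37.8 to 41.8) for all autosomes. Chromosome X was above these at 44.5% (305 of 686 peaks, 40.8 to 48.2) and was the only chromosome on which lone peaks outnumbered those with H3K4me2, 305 against 291, while chromosome 17 had 909 against 910.

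**Figure D4:**
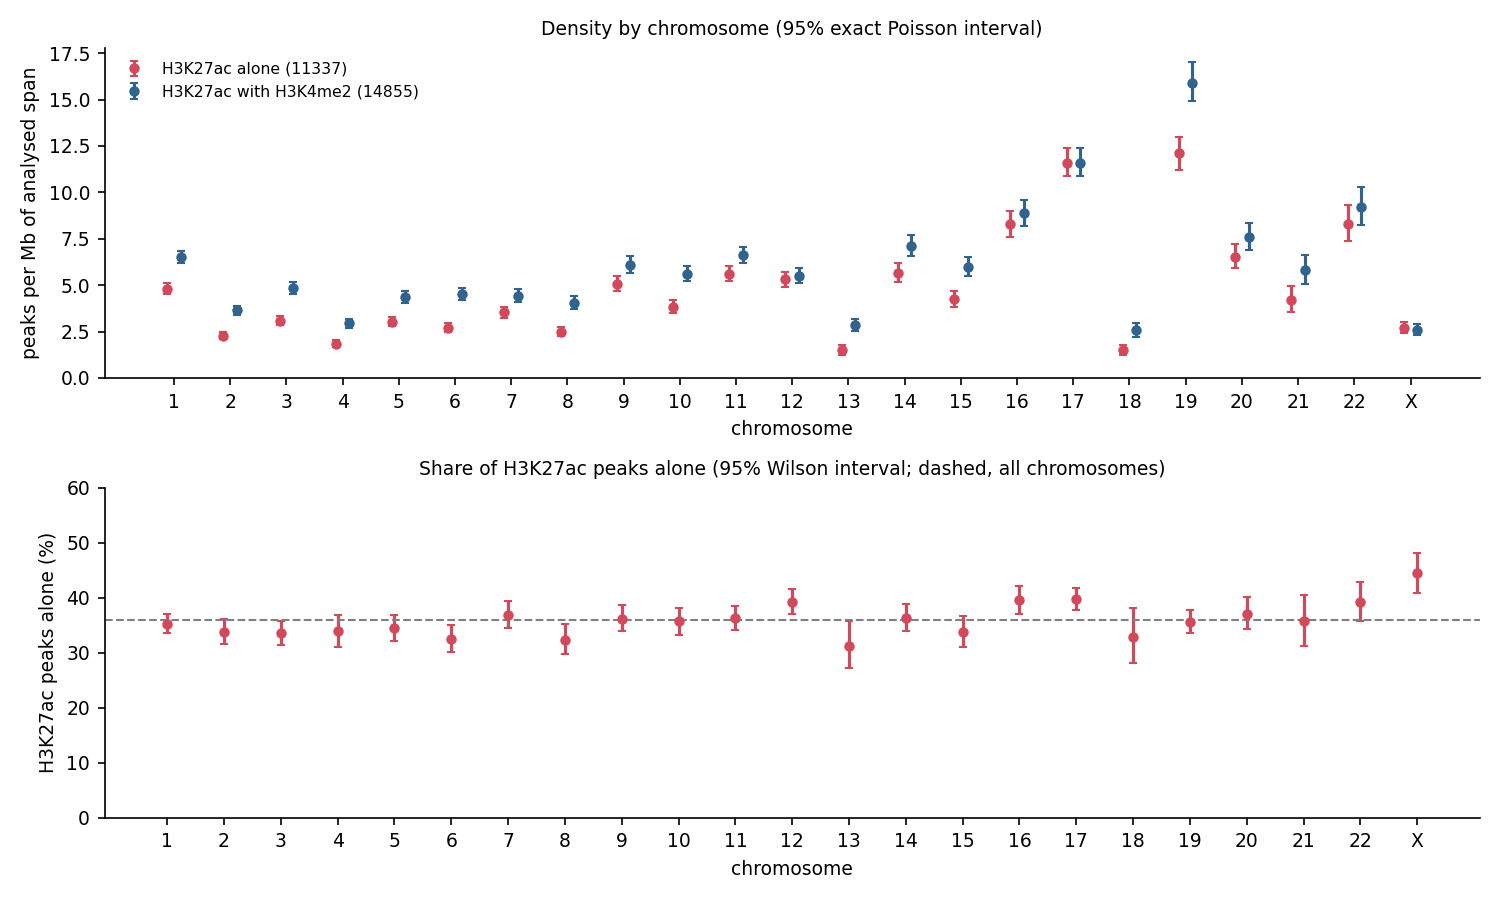
Top, peaks per Mb of analysed span on each chromosome for lone H3K27ac peaks (red) and H3K27ac peaks with H3K4me2 (blue), with exact 95% Poisson intervals. Bottom, lone peaks as a share (%) of H3K27ac peaks with 95% Wilson intervals and the share over all chromosomes dashed. Chromosome X stands highest at 44.5%.

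On chromosome X the lone share was raised between 65 and 135 Mb, where peaks with H3K4me2 were few, 37 against 254 on the rest of the chromosome. There 144 of 189 H3K27ac peaks were lone (76.2%, Wilson interval 69.6 to 81.7), against 161 of 497 on the rest of the chromosome (32.4%, 28.4 to 36.6). The same stretch held 129 H3K4me2 peaks, 1 of H3K27me3 and 1 of labelled H2A.Z, against 964, 476 and 224 elsewhere on the chromosome, whereas H3K36me3 still had 277 peaks against 807. Its lone peaks lay 71320 bp from H3K4me2 in the median, against 2057 bp on the rest of X.

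Chromosomes 12 and 16 each held a stretch of the same kind. On chromosome 12 from 5 to 15 Mb, 68 of 94 H3K27ac peaks were lone (72.3%, 62.6 to 80.4), against 620 of 1658 on the rest (37.4%, 35.1 to 39.8). That stretch held 50 H3K4me2 and 105 H3K36me3 peaks, and 0 of H3K27me3 and of labelled H2A.Z, and its lone peaks lay 33371 bp from H3K4me2, against 3888 bp on the rest. On chromosome 16 from 50 to 55 Mb, 27 of 39 H3K27ac peaks were lone (69.2%, 53.6 to 81.4), against 544 of 1404 on the rest (38.7%, 36.2 to 41.3), again with 0 peaks of H3K27me3 and of labelled H2A.Z. Here the median gap to H3K4me2 was 3932 bp, near that of lone peaks elsewhere on the chromosome (2544 bp). These stretches, each with at least 30 H3K27ac peaks, were picked after their values were seen.

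Over the genome, 28 windows of 5 Mb with H3K27ac held at most 1 H3K27me3 and at most 1 labelled H2A.Z peak. In them 261 of 386 H3K27ac peaks were lone (67.6%, Wilson interval 62.8 to 72.1), against 11076 of 31067 in the other 565 windows (35.7%, 35.1 to 36.2). Within the sparse windows the excess lay in the 3 stretches described above, whose 17 windows held 239 lone peaks of 322, or 74.2% (69.2 to 78.7). The other 11 sparse windows held 22 of 64, or 34.4% (23.9 to 46.6), an interval that takes in the share elsewhere. H3K4me2 numbered 1.03 peaks per H3K27ac peak in the sparse windows and 2.06 in the other windows, labelled H3K9me3 0.148 and 0.656, and H3K36me3 1.52 and 1.67. The windows were picked for lacking peaks of lists that the lone rule excludes, and 2 further such lists were thin in them, so their lone share, and the width and gaps of their lone peaks, describe that selection and support nothing else. Lone peaks in the sparse windows were wider, with a median of 728 bp and 34.1% at the commonest width, against 60.7% in the other windows, and lay 44749 bp from H3K4me2 in the median against 2596 bp. Among wide peaks, over 1000 and up to 5000 bp, 88 of 150 were lone in the sparse windows (58.7%, 50.7 to 66.2), against 16.9% (16.2 to 17.7) in the others. Chromosomal copies and input reads of these stretches were not analysed here, and their part in these counts was not tested. Without the 28 windows the lone share was 35.7% and the highest share of any chromosome was 39.8%, on chromosome 17.

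**Figure D5:**
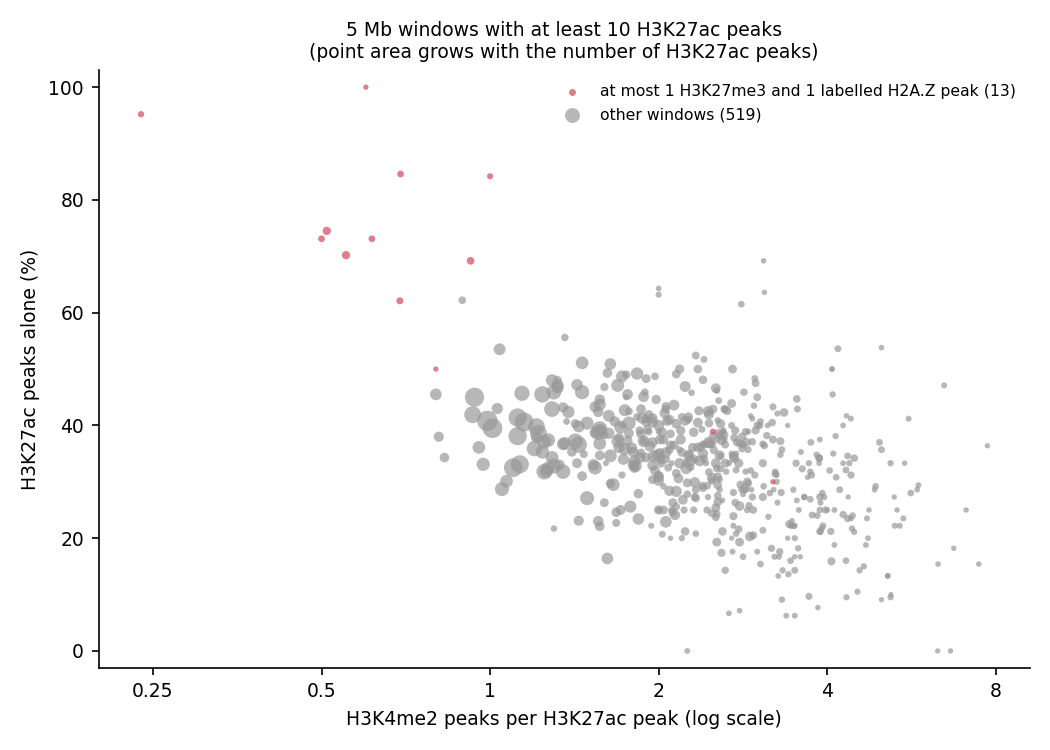
Lone peaks as a share (%) of H3K27ac peaks against H3K4me2 peaks per H3K27ac peak (log scale) in 532 windows of 5 Mb with at least 10 H3K27ac peaks, 1 point each, with an area that grows with the number of H3K27ac peaks. The 13 windows with at most 1 H3K27me3 and 1 labelled H2A.Z peak (red) have a median of 73.1%, the other 519 (grey) a median of 34.0%.

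The lone peaks farthest from H3K4me2 or H3K27ac all lay in sparse windows on chromosomes X and 16. The 3 farthest from H3K4me2 were chrX:91007762-91008262 with a gap of 4821983 bp, chr16:61952097-61952730 with 3289332 bp and chrX:92674792-92675603 with 3264794 bp. The 3 farthest from another H3K27ac peak were chrX:88141439-88142735, 2838908 bp away, chrX:142203461-142203961, 2629465 bp away, and the same chromosome 16 peak, 1941150 bp away. These are exceptions among the lone peaks, of which 89.2% had an H3K4me2 peak within 20 kb and 413 (3.64%) had no other list at all within that distance.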

How the data were processed

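The authors deposited 1 peak list for each of 6 marks, as chromosome, start, end and peak name, with no height, score or p-value. The submitters' processing notes name Bowtie2 2.1.0, HOMER 4.2, hg19 and GRCh37, with no role for any of them. What is not given in the sources used here includes caller settings, read depth and any use of the input. An input sample was not analysed here, so 6 of 7 samples were used. Peaks on chromosomes 1 to 22 and X were kept. Coordinates are hg19 and 1-based. Overlap meant at least 1 shared bp, and gaps are bp between nearest edges of peaks that do not overlap. Runs joined H3K27ac peaks at most 12.5 kb apart. The span ran from the first to the last peak on each chromosome, less 58 peak-free spans of 1 Mb or more (172.1 Mb). Wilson, exact Poisson and order-statistic intervals are at 95%. Intervals given for a difference of medians join the opposite ends of both medians' intervals and are not 95% intervals of the difference. A replicate test was impossible with 1 library per mark. Named regions are the 3 most extreme on each measure and on each side of a limit. The rule and its settings were chosen with earlier results of these data known. The sparse windows, the 5 kb joining distance and the alternative comparison groups were added after seeing the data. Planned work on genes, marker genes and sequence was not done, since no hg19 annotation or genome was used here. Overlaps and gaps were tested on simulated data and against bedtools 2.31.1, which gave the same 11337 peaks. Computation used Python 3.11.15, numpy 2.4.6, pandas 2.3.3 and scipy 1.17.1.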

Additional observations from a re-analysis of the deposited data

Results flagged for a closer look

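Some H3K27ac peaks without any other list lay in rows that no comparison used. Of the 157 H3K27ac peaks outside chromosomes 1 to 22 and X, over 26 contigs of which Y is 1, 16 were at most 5000 bp wide and met no other list (10.2%, Wilson interval 6.37 to 15.9), which is above the 3 counts that a count of 0 allows. That limit shows only that such peaks were present. The share was below that on chromosomes 1 to 22 and X, where its interval was 35.5 to 36.6%. Of the same 157 peaks, 86 (54.8%) met H3K4me2.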

How the results depend on the processing

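No paired analysis was possible because each mark had 1 library and no result comes from a test between samples. Of 145 values recomputed under 15 alternatives, 66 moved by less than their interval (counts, by less than 1.5 times), 78 moved by more and 1 difference whose interval left out 0 turned its direction. With no other list within 1 kb, the difference in median gap to H3K4me2, lone peaks minus peaks with H3K4me2, turned to 563 bp, against -1430 bp, because near peaks then leave the lone group only. The difference in median gap to H3K36me3, which was -56.0 bp with an interval across 0 (-1251 to 1143), had no settled direction: it was 3790 bp (2272 to 5322) under the same rule, 3704 bp (293 to 8533) in the widest class and -9520 bp (-12689 to -7056) in the narrowest. It was also positive, with intervals across 0, with no width limit (228.5 bp), without both labelled lists (649 bp), above the commonest width (1470 bp) and in the class over 1000 and up to 2000 bp (1558 bp). Under the rule of 1 kb 7095 peaks were lone (22.6%), with median gaps of 4681 bp to H3K4me2, 16811 bp to H3K36me3 and 4020 bp to H3K27ac. Another H3K27ac peak lay within the joining distance for 71.7%, 2280 runs were of lone peaks only, and the share on chromosome X was 31.6%. With H3K27ac peaks above the commonest width alone, these values were 4514 peaks (24.7%), 2416, 11904 and 8332 bp, 57.9% and 2061 runs. The highest share by chromosome was then 37.0%, and the median width was 831 bp, a difference of -440 bp. This setting also removes the narrow peaks as neighbours, so its gap to H3K27ac, share with a neighbour and runs are not like the main ones. With all neighbours kept, the median gaps of lone peaks to H3K27ac in the 3 wider classes were 3114, 4351 and 3560 bp. With peaks merged within 1 kb the share was 33.4%, the width difference -575 bp, the gaps to H3K4me2 and H3K27ac 3120 and 5572 bp and the share with a neighbour 67.0%. With overlap counted from 50% of the shorter peak the share was 42.9%, the width difference -438 bp, the gaps 2811, 12270 and 3655 bp, the share with a neighbour 71.9% and the highest by chromosome 51.6%. Without the labelled H2A.Z and H3K9me3 lists the share was 41.6%, the gaps to H3K36me3 and H3K27ac 13670 and 4074 bp, the share with a neighbour 69.9% and the highest by chromosome 50.1%. By width class, narrow to wide, the lone share was 51.7, 35.2, 21.0 and 12.2%, and the gap to H3K4me2 2880, 2327, 2442 and 2822 bp. The gap to H3K36me3 moved to 13784, 10482 and 9962 bp in the narrowest and the widest classes, that to H3K27ac to 3114 and 4351 bp in the middle classes, and the share with a neighbour to 74.4% up to the commonest width and 66.7% over 1000 and up to 2000 bp. With no width limit the width difference was -437 bp, and on autosomes alone the highest share by chromosome was 39.8%. Of the alternatives added after seeing the data, leaving out the sparse windows also gave 39.8%, comparison peaks without H3K36me3 or with H3K4me2 and no other list gave width differences of -392 and -284 bp, and runs joined at 5 kb gave 5540 of lone peaks only. Except where stated, the cause was not tested. The lists hold no depth or height, so what depth limits is unknown.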

Other observations

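The lone share was larger where H3K27ac peaks were many. In windows of 1 Mb that held 1 to 2 H3K27ac peaks, 206 of 762 peaks were lone (Wilson interval 24.0 to 30.3%), against 39.5% (38.1 to 40.8) in the 78 windows with 51 or more. Of 2480 such windows with H3K27ac, 1973 held a lone peak, against 2312 that held a peak with H3K4me2. The 248 windows with most of each held 43.6% of lone peaks and 34.4% of peaks with H3K4me2. Each group's windows were ranked by its own count, so these shares describe that ranking. The most in 1 window was 47 lone peaks, against 43 peaks with H3K4me2. Over 5 Mb windows with at least 10 H3K27ac peaks, the lone share was 46.7% (44.4 to 49.0) in windows with up to 1 H3K4me2 peak per H3K27ac peak and 23.5% (19.3 to 28.2) in those with over 5. The rule uses H3K4me2, so the last relation is a description. The nearest labelled H3K9me3 peak not overlapped lay at a median of 33225 bp (32180 to 34351) from lone peaks, against 37940 bp (37029 to 38987) for peaks with H3K4me2. The rule bars lone peaks from overlapping that list, while peaks with H3K4me2 could overlap it and were then scored by the next peak. These medians therefore do not show which group was nearer to it. In the first kb outside the peaks this list covered 1.17% around lone peaks and 3.78% around peaks with H3K4me2.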
